A study of Erysimum cheiri and Matthiola incana and Raphanus sativus with 44 samples.

Results

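Orychophragmus violaceus is a spring-flowering crucifer whose petals occur in several colours, and the comparison here was between petals of its form P, labelled violet, and its form W, labelled white-violet. Each form had 2 libraries, replicates 1 and 2, out of 44 libraries of 22 forms of 10 crucifer species in the whole series. Both forms were sampled in the same way, as petals of half-open flowers of plants grown in a greenhouse, and profiled by strand-specific sequencing of poly(A) RNA. No treatment, transgene, age or cultivar name is given for either form. The series describes the 2 libraries of a form as biological replicates without saying which plants they came from, so p-values here measure only the spread between these libraries.

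The values are FPKM, fragments scaled for transcript length and for the mapped total of the library, on 34133 Arabidopsis thaliana loci, so a low value can also come from sequence that differs from Arabidopsis. The loci described are the 13226 whose mean reached 1 FPKM in P, in W or in both, whatever their function. Genes of flavonoid and plastid isoprenoid synthesis were set aside. The rest were read through 43 lists of known processes holding 755 loci, of which 591 reached the level needed for testing.

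A petal grows first by division and then by expansion of its cells. During expansion cellulose is laid down along microtubules, walls are loosened by expansins, water enters the vacuole and the surface is sealed with cutin and wax. An open petal is short-lived, and its later life is one of breakdown, in which vacuolar proteases and autophagy take proteins apart and nutrients are carried back to the plant. Daily rhythm genes, floral organ identity genes and hormones act on both phases.

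Genes of both phases differed between the forms. Vacuolar proteases, an autophagy protein, a senescence nuclease, a chlorophyll b reductase and metallothioneins stood far higher in W, while cellulose synthases, tubulins, cutin and wax genes and chaperones of the endoplasmic reticulum stood higher in P. Limma with Benjamini-Hochberg adjustment called 653 loci at an adjusted p under 0.05, which is 4.94% of those tested. In P 219 loci (1.66%) were higher and 434 (3.28%) lower. That split depends on scaling, since quantile scaling gave 272 higher and 318 lower and moved the median log2 difference of all loci from -0.15 to -0.03. Of the 96 calls among the 591 tested loci of the lists, 84 held with that scaling. The 12 lost were CHLG, CCA1, LNK2, ABCG12, RPL9D, HSP17.6II, AP2, PI, APX1, ORE1, STP13 and GSH1, at adjusted p of 0.0532 to 0.0909. The calls also rest on the intensity trend of the limma fit, since without it 0 loci were called, the smallest adjusted p was 0.0572 and 2845 loci had an unadjusted p under 0.05. On simulated data with many changed loci this fit made more false calls than its threshold allows, so the adjusted p-values below may be too small. The libraries of the forms did not overlap at 45.6% of all tested loci. The 4.94% of all loci is not a like baseline for the counts of each list below. The lists and their members were chosen with earlier results of these data known. Listed loci also stood at higher levels. A form mean of 10 FPKM was reached by 495 of the 591 listed loci and by a smaller share of all tested loci. All 653 calls were among the loci that reached it. The counts and medians below therefore describe the lists and do not show an excess for a process. In a list with few calls the counts describe only the genes called.

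**Figure D1:**
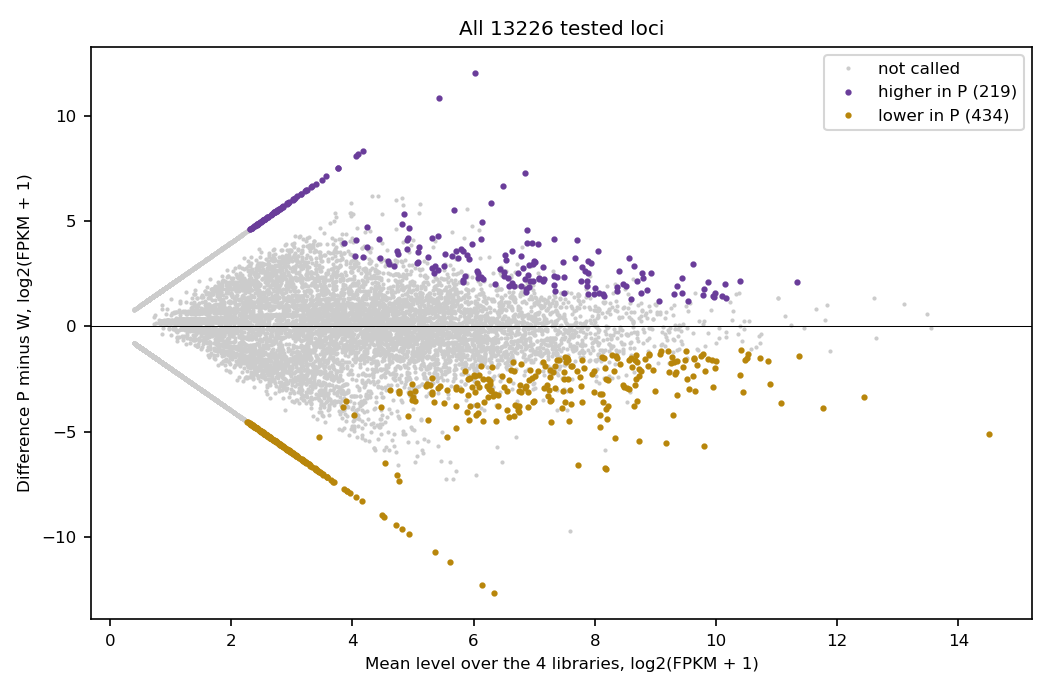
Log2 difference P minus W (vertical axis) against the mean level over the 4 libraries (horizontal axis, log2(FPKM + 1)) for each tested locus, with the 219 loci called higher in P and the 434 called lower in colour. The straight edges are loci listed at 0 in both libraries of a form, and called loci occur from middle to high levels, not among the lowest.

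The libraries are shallow, and they are shallower in P. Low FPKM values fell on steps that mark whole reads, and a single read of a typical stepped locus was worth 5.97 and 6.47 FPKM in the P libraries and 4.42 and 3.60 FPKM in the W libraries. There were 8779 and 8408 loci above 0 in P and 9445 and 9958 in W. At such a locus a value of 0 allows up to 17.9 and 19.4 FPKM in P and 13.3 and 10.8 FPKM in W (3 reads, counting error only), and such loci are described as listed at 0, with no fold. Of the 219 loci called higher in P, 73 were listed at 0 in both W libraries. Of the 434 called lower, 199 were listed at 0 in both P libraries. Differences of loci listed at 0 enter the medians of the lists below and depend on the pseudocount. Whole reads were recovered from the steps for 5378 loci and tested with limma voom as an alternative. Across loci the Spearman correlation was 0.77 between the P libraries, 0.80 between the W libraries and 0.70 to 0.71 between forms. Depth and form cannot be told apart in these libraries. In these bulk samples, fewer cells of a type and less RNA per cell cannot be told apart.

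**Figure D2:**
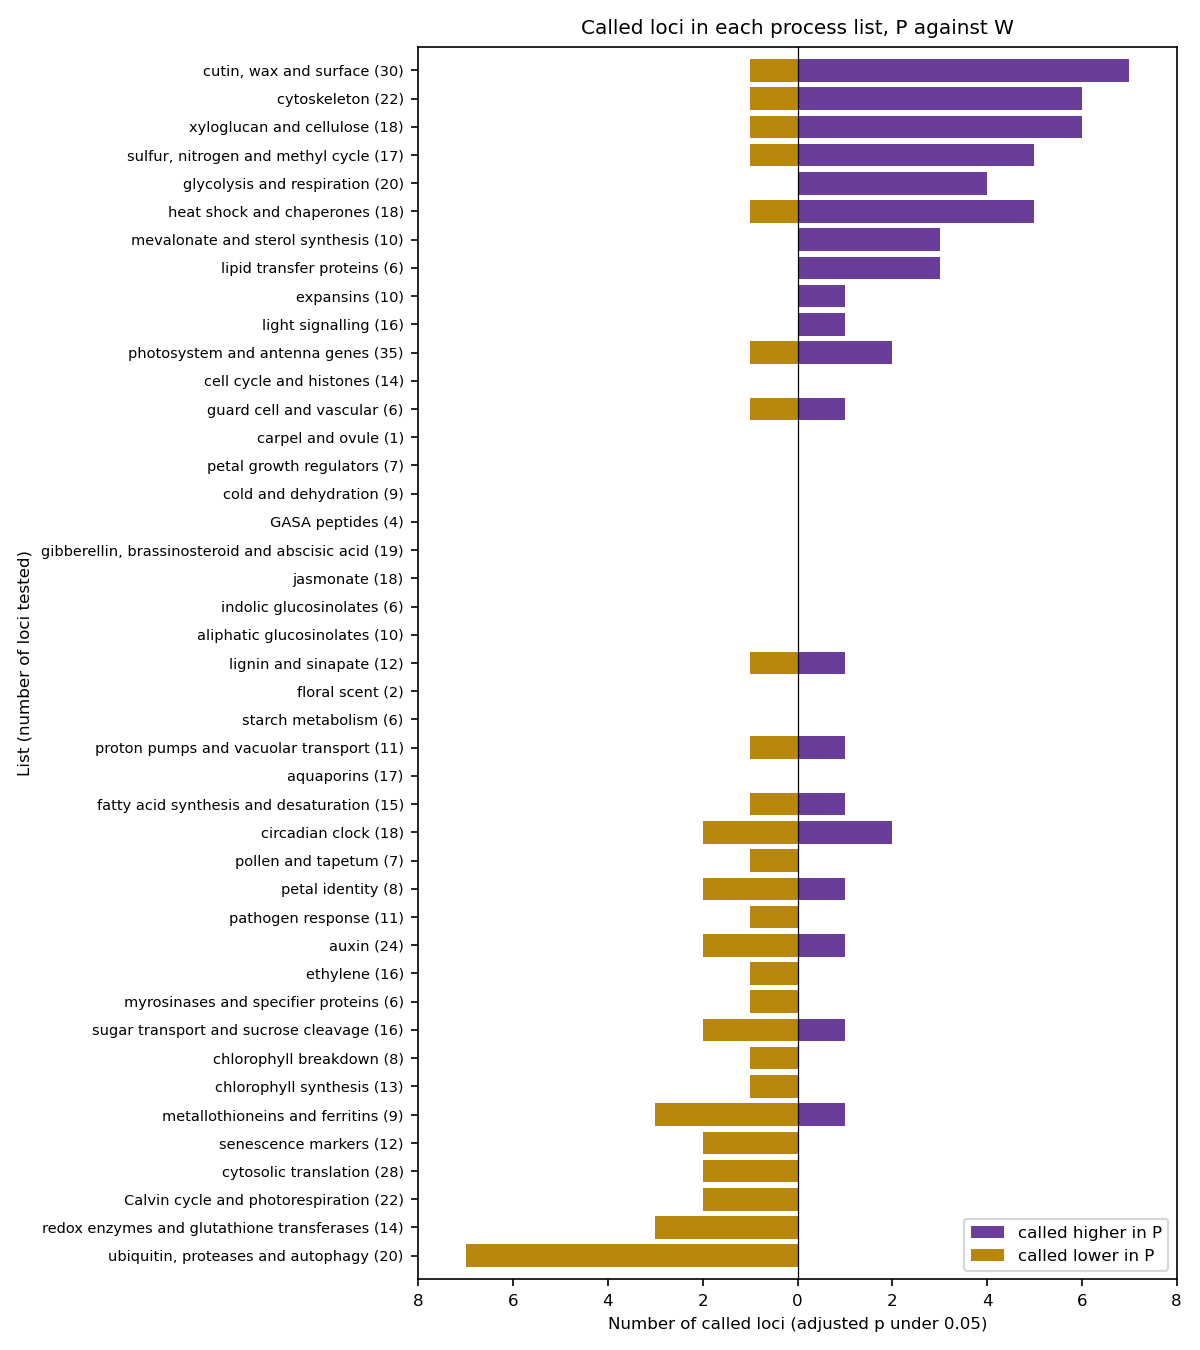
Number of loci called higher in P (right) and lower in P (left) in each of the 43 process lists, with the number tested in parentheses. Calls lower in P are most numerous among ubiquitin, proteases and autophagy (7 of 20), and calls higher in P among cutin, wax and surface (7 of 30), cytoskeleton (6 of 22) and xyloglucan and cellulose (6 of 18).

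Protein breakdown genes had more calls lower in P than any other list. The list of ubiquitin, proteases and autophagy had 0 loci called higher in P and 7 of 20 called lower, with a median log2 difference of -2.30 against -0.15 for all loci. CATHB3, a cathepsin B-like cysteine protease, held 110.4 and 135 FPKM in the P libraries and 6660.3 and 6194 in the W libraries. Both W libraries were far above both P libraries, the means stood 52.4-fold apart, and the log2 difference of -5.71 ± 0.16 (± SE of the limma fit, as below) had an adjusted p of 0.0101. SAG12, the cysteine protease most used as a mark of leaf senescence in Arabidopsis, was listed at 0 in both P libraries and held 516 and 494 FPKM in W (adjusted p 0.0165).

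The other called members were proteases of the vacuole and 1 autophagy protein. RD21A, a papain-like protease made as a precursor, held 75.2 and 50.2 FPKM in P and 1084 and 1275 in W, an 18.8-fold difference (adjusted p 0.024). RD19A, a related cysteine protease first found under drought, held 285 and 265 FPKM in P and 2272 and 2387 in W (8.47-fold, adjusted p 0.0165). GAMMA-VPE, a vacuolar processing enzyme that activates other vacuolar proteins, held 26.9 and 17.5 FPKM in P and 335 and 293 in W (14.1-fold, adjusted p 0.0259). In all of these the W libraries stood together and above both P libraries. AALP, an aleurain-like protease of the vacuole, differed less, at 65.5 and 86.7 FPKM against 452 and 399.9 (5.6-fold, adjusted p 0.0287). ATG8F, a ubiquitin-like protein that coats autophagosome membranes, held 17.7 and 19.1 FPKM in P and 131 and 151 in W (7.66-fold, adjusted p 0.0323).

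The ubiquitin genes of the same list were not called. UBQ10, a polyubiquitin gene, held 1002 and 963 FPKM in P and 821 and 816 in W, with an adjusted p of 0.303. UBQ11 held 1370.2 and 1354 FPKM against 1315 and 1373. The proteasome subunit PBA1 overlapped between forms. Of the 7 calls, 3, 5, 4 and 3 held when P replicate 1, P replicate 2, W replicate 1 and W replicate 2 were left out, and 3 held in all 4 cases.

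Senescence and chlorophyll breakdown genes gave fewer calls in the same direction. BFN1, a bifunctional nuclease of senescing and dying cells, held 8.43 and 9.13 FPKM in P and 231 and 337 in W, which is 1 and 1 recovered reads against 37 and 66 (adjusted p 0.0242). ORE1, a NAC transcription factor that promotes leaf senescence, was listed at 0 in P and held 47.6 and 22.2 FPKM in W (adjusted p 0.0465). These were the 2 called of 12 senescence markers, whose median log2 difference was -2.42. NAP, another senescence NAC factor, held 10.1 and 0 FPKM in P and 89.4 and 85.3 in W without a call (adjusted p 0.119). The senescence gene WRKY6 held 5.05 and 5.48 FPKM against 37.4 and 51.8 (adjusted p 0.0572).

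NYC1, the chlorophyll b reductase that opens the breakdown of antenna complexes, held 27.3 and 23.7 FPKM in P and 452 and 425 in W. It was 17.2-fold higher in W, with 5 and 4 recovered reads against 112 and 129, and its call (adjusted p 0.024) held whichever library was left out. It was the 1 called member of 8 chlorophyll breakdown genes. PAO, the oxygenase that opens the chlorophyll ring, held 15.2 and 27.5 FPKM against 90.1 and 61.2 (adjusted p 0.114). NYE1, the magnesium dechelatase, held 72.1 and 71.0 against 38.8 and 31.7 (adjusted p 0.16). Of 13 chlorophyll synthesis genes, 10 had positive and 3 negative log2 differences, and 1 was called. The called gene, CHLG, chlorophyll synthase, went against most of its list. It was lower in P, at 52.3 and 63.7 FPKM against 194 and 217 (adjusted p 0.0473). Its call ended with quantile scaling (adjusted p 0.0586).

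**Figure D3:**
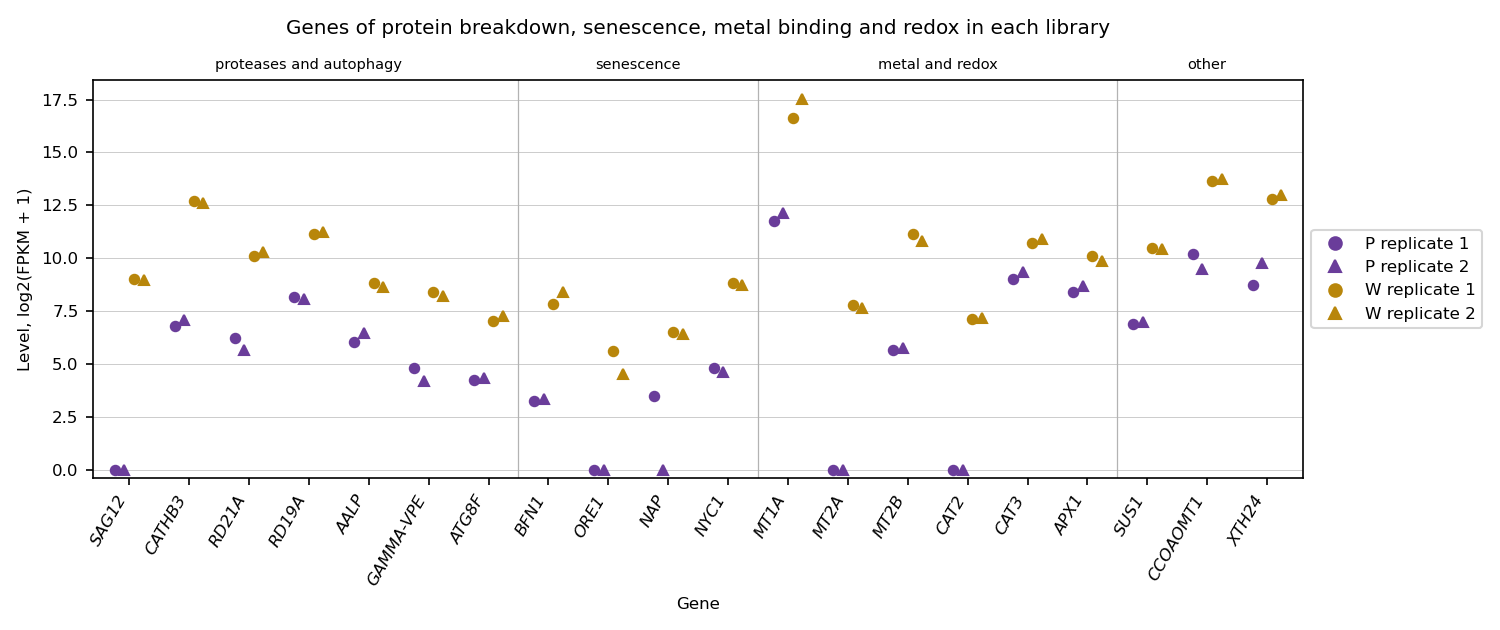
Level of 20 genes, log2(FPKM + 1), in each of the 4 libraries, with circles for replicate 1 and triangles for replicate 2 and 0 on the axis for a locus listed at 0. The genes were picked for standing higher in W, so both W libraries (ochre) lie above both P libraries (violet) throughout. They run from SAG12, at 0 in P, to MT1A, the highest in W. Listed members that overlapped or went the other way, such as CSD1 and FER1, are not shown.

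Metallothioneins, small cysteine-rich proteins that bind metal ions, included the most abundant transcript of W. MT1A held 3426 and 4514 FPKM in P and 100528 and 189642 in W (log2 difference -5.13 ± 0.35, adjusted p 0.024). It made up 0.587% and 0.659% of all FPKM in the P libraries and 11.5% and 18.9% in the W libraries. FPKM divides by transcript length, so a share of FPKM is not a share of reads. MT2B held 49.0 and 52.8 FPKM in P and 2232 and 1829 in W (39.9-fold, adjusted p 0.0144), and MT2A was listed at 0 in P against 219 and 198 in W (adjusted p 0.024). The W libraries were far above the P libraries for each of these. The 4 listed metallothioneins other than MT1A summed to 124 and 333 FPKM in P and 3255 and 2810.0 in W. Loci on no list were not named and are not part of this sum.

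FER1, a ferritin that stores iron in plastids, went the other way at 452 and 474 FPKM in P against 93.3 and 112 in W (4.51-fold higher in P, adjusted p 0.0272). The 9 listed metallothioneins and ferritins, all tested, thus had 3 calls lower and 1 higher in P, with a median log2 difference of -3.07. FER3 was read at 9.69 and 0 FPKM in P and 35.9 and 35.2 in W, without a call.

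Called enzymes that remove hydrogen peroxide were higher in W. The list of redox enzymes and glutathione transferases had 3 of 14 members called lower in P and 0 called higher, and 2 of the 11 not called stood higher in P without overlap. CAT2, a peroxisomal catalase, was listed at 0 in P and held 139 and 145 FPKM in W (adjusted p 0.0242). CAT3, the catalase that increases in ageing Arabidopsis leaves, held 526 and 649 FPKM against 1699 and 1931 (3.09-fold, adjusted p 0.0292). APX1, the cytosolic ascorbate peroxidase, held 342 and 406 against 1110.0 and 928 (2.73-fold, adjusted p 0.0392). Reads of near-identical relatives can be assigned to either copy, but the 3 catalases together also stood apart, at 556 and 692 FPKM in P and 1897 and 2139 in W. Superoxide dismutase CSD1 overlapped, at 673 and 1618 against 1164 and 1346.

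The summed markers of pollen were also higher in W. Of 17 pollen and tapetum markers 7 were tested, 1 was called and 10 were listed at 0 in all 4 libraries. Their sum was 35.1 and 10.4 FPKM in P and 900.1 and 854 FPKM in W. VGDH1, a pollen pectin methylesterase, was the called member, at 4.81 and 10.4 FPKM in P and 164 and 186 in W (adjusted p 0.0317). Its relative VGD1 held 22.4 and 0 against 608 and 525 (adjusted p 0.0922) and PPME1 7.85 and 0 against 105 and 109. Both W libraries were higher in all 3, and the tapetum genes A9, ATA7, MS1 and AMS were listed at 0 throughout. The part of pollen RNA in the protease, senescence, metallothionein and redox differences, and in the other differences with higher values in W, was not tested.

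Genes of cellulose synthesis were higher in P. Of 18 xyloglucan and cellulose genes 6 were called higher in P and 1 lower, with a median log2 difference of 2.05. CESA1, CESA3, CESA5 and CESA6 are subunits of the complex that spins cellulose in growing walls. CESA3 held 2155 and 2439 FPKM in P and 566 and 560.4 in W (4.08-fold, log2 difference 2.02 ± 0.13, adjusted p 0.024), and CESA1 1001 and 970.0 against 195 and 201 (4.98-fold, adjusted p 0.024). CESA6 stood at 326 and 427 against 51.4 and 53.0 (7.22-fold, adjusted p 0.0263). The replicates of each form lay close together in all 3, and CESA5 was called as well, 6.03-fold higher in P. CESA2, at 37.3 and 43.1 against 7.36 and 10.5, was not called (adjusted p 0.084). Summed over the 5 synthases, which can share reads, P held 3796 and 4120.2 FPKM and W 865 and 866.

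A pair of partners of the cellulose complex were called higher in P as well. COB, a surface protein that orients cellulose, held 928 and 844 FPKM against 237 and 160.0 (4.46-fold, adjusted p 0.0345), and CTL1, a chitinase-like protein needed for cellulose assembly, 517 and 660.1 against 89.1 and 77.0 (7.08-fold, adjusted p 0.0251). KOR1, the membrane cellulase of the same machinery, overlapped between the forms at 335 and 399.7 against 530.1 and 358. XTH24, a xyloglucan endotransglucosylase also known as a senescence-associated gene, was the exception, at 422 and 877 FPKM in P and 7178 and 8244 in W (11.9-fold higher in W, adjusted p 0.0295). Of the 7 calls, 3, 5, 2 and 1 held when each library was left out in turn, in the order given for the proteases.

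Expansins, which loosen walls at low pH, had positive log2 differences in 9 of 10 tested genes, and 1 was called. EXPA11 was the called one, with 472 and 554 FPKM in P and 64.3 and 58.4 in W (8.36-fold, adjusted p 0.0242). EXPA1 held 621 and 476 against 205 and 162 (adjusted p 0.0523), and EXPA4 overlapped between forms. The proton pump AHA1, which acidifies the wall, was called higher in P, at 1443 and 1539 FPKM against 516 and 524 (2.87-fold, adjusted p 0.0251), while AVA-P1, a proteolipid subunit of the vacuolar proton pump, was lower, at 802 and 952 against 2573 and 2312 (2.78-fold higher in W, adjusted p 0.0268).

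The cytoskeleton had 6 of 22 members called higher in P and 1 lower. TUA4, an alpha-tubulin, held 619.8 and 777 FPKM in P and 89.1 and 83.6 in W (8.08-fold, adjusted p 0.0242). TUB4, a beta-tubulin, held 1598 and 2359 against 517 and 396 (4.33-fold, adjusted p 0.0388), and ACT7, the actin of growing vegetative tissue, 1067 and 1282 against 183 and 226 (5.74-fold, adjusted p 0.0243). Every P library was above every W library for these 3. TUA5, TUA2 and ACT1, the last a pollen actin in Arabidopsis, were also called, 12.7-fold, 2.61-fold and 2.96-fold higher in P.

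Tubulins and actins are close copies whose reads can be assigned to either, so their sums are given as well. The 5 alpha-tubulins summed to 3221 and 4142 FPKM in P and 1225 and 1272 in W, the 6 beta-tubulins to 2911 and 3960.5 against 1298 and 1266, and the 8 actins to 9690.2 and 13807 against 5625 and 5683. All 3 sums were higher in P without overlap. The call lower in P was ACT4, another actin of mature pollen in Arabidopsis, with 33.7 and 14.6 FPKM in P and 514 and 378 in W (18.5-fold higher in W, adjusted p 0.0345). It lay in the direction of the summed pollen markers, and ACT1 in the opposite direction. Of the 7 calls, 1, 2, 0 and 0 held when the libraries were left out in the same order.

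Called cutin and wax genes were higher in P with 1 exception. The list had 7 of 30 members called higher and 1 lower, 26 with positive differences, and a median log2 difference of 2.13. SHN1, a transcription factor that switches on cutin genes, held 327 and 261 FPKM in P, with 0 listed for W replicates 1 and 2 (adjusted p 0.0224). CUS2, which joins cutin monomers, was likewise listed at 0 in W, against 49.4 and 68.8 FPKM in P, and HTH, an oxidoreductase of the cutin pathway, against 62.9 and 31.5. KCS20, a condensing enzyme that lengthens fatty acids for wax, held 248 and 341 FPKM in P against 40.8 and 43.3 in W (7.0-fold, adjusted p 0.0292). CER6, of the same family, held 142 and 183 against 24.2 and 29.6 (6.04-fold, adjusted p 0.0392). No P value overlapped a W value in this set.

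CER1 and CER3 together make wax alkanes. CER1 held 1022 and 1419 FPKM in P and 437 and 356 in W (3.08-fold, adjusted p 0.0469), and CER3 197 and 209 against 67.0 and 64.0 (3.1-fold, adjusted p 0.0481). ABCG12, a wax exporter, was the 1 call lower in P, at 241 and 215 against 691 and 812 (3.3-fold higher in W, adjusted p 0.0312), and its partner ABCG11 overlapped. Of the 8 calls, 1, 2, 1 and 1 held when the libraries were left out in the same order.

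Lipid transfer proteins, small carriers that bring lipids to the surface, had 3 of 6 members called, all higher in P, and a median log2 difference of 5.22. LTP6 held 45.9 and 99.0 FPKM in P and LTPG1 61.9 and 66.9, and in W both were listed at 0, as was LTP7. LTP1, the most abundant of the list, held 1703 and 3101 against 757 and 776 without a call (adjusted p 0.0732). In fatty acid synthesis MOD1, the enoyl-ACP reductase, was higher in P (142 and 160.5 FPKM against 14.3 and 11.7, 11.6-fold, adjusted p 0.0272), while FAD3, the linoleate desaturase of the endoplasmic reticulum, was lower (415 and 404 against 1214 and 1289, 3.06-fold higher in W, adjusted p 0.0251). These were the 2 calls among 15 genes of that list.

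**Figure D4:**
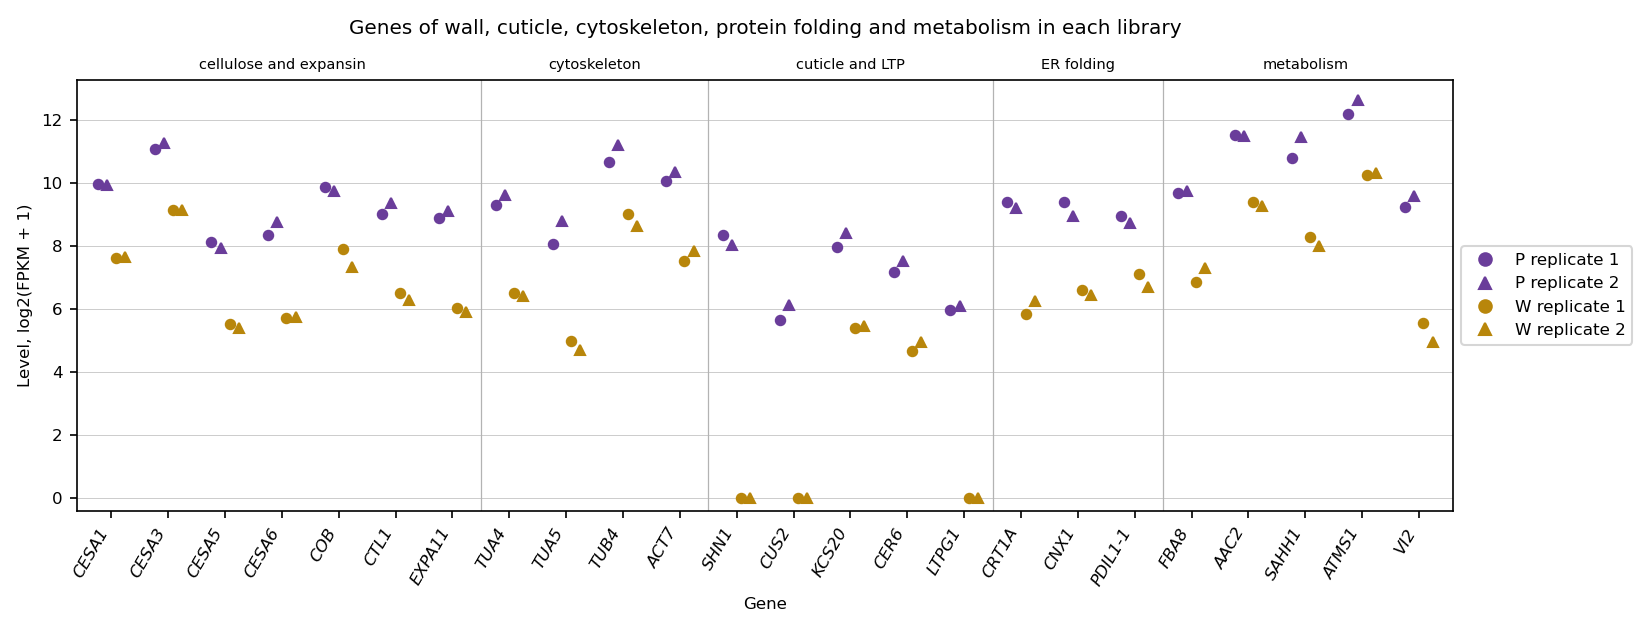
Level of 24 genes, log2(FPKM + 1), in each of the 4 libraries, with circles for replicate 1 and triangles for replicate 2. The genes were picked for standing higher in P, so both P libraries (violet) lie above both W libraries (ochre) throughout. SHN1, CUS2 and LTPG1 are listed at 0 in W. Listed members that overlapped or went the other way, such as KOR1 and ABCG12, are not shown.

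Chaperones that fold secreted proteins were higher in P, while ribosomal genes were mixed. The list of heat shock and chaperones had 5 of 18 members called higher in P and 1 lower, with a median log2 difference of 1.63. CRT1A, calreticulin, held 675 and 590.5 FPKM in P and 55.7 and 74.7 in W (9.71-fold, log2 difference 3.27 ± 0.25, adjusted p 0.0242), and its partner CNX1, calnexin, 675 and 492 against 94.9 and 86.3 (6.44-fold, adjusted p 0.0265). PDIL1-1, a disulfide isomerase, held 488 and 426 against 136 and 102 (3.84-fold). The 3 endoplasmic reticulum proteins were thus higher in both P libraries, and the BIP chaperones of the same compartment summed to 391 and 293 FPKM in P and 116 and 139.8 in W without a call.

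HSC70-2, a cytosolic HSP70 protein, was also called, at 305 and 289 FPKM in P and 66.8 and 54.4 in W, and so was HSC70-3, 3.78-fold higher in P. The 4 cytosolic HSP70 genes, most of it HSP70-1, summed to 2954 and 3424 in P and 1999.8 and 2069.8 in W. The stress-induced small heat shock gene HSP17.6II was listed at 0 in P and read at 26.8 and 88.1 in W, and HSP101 was low in both forms. Of the 6 calls, 0, 1, 4 and 3 held when the libraries were left out in the same order.

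In cytosolic translation 0 of 28 genes were called higher in P and 2 lower, against a median log2 difference of 0.59. RPS6B, a protein of the small ribosomal subunit, held 151 and 152 FPKM in P and 558 and 801 in W (4.49-fold higher in W, adjusted p 0.0345), while its copy RPS6A held 251 and 200.0 against 78.4 and 103 and was not called. The sum of both was 402 and 352 in P and 637 and 903 in W. RPL9D, of the large subunit, was listed at 0 in P and read at 28.0 and 22.9 FPKM in W. The 4 elongation factor EF1A genes summed to 2723 and 5026 FPKM in P and 4645 and 4955 in W and overlapped.

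Primary metabolism differed by branch. Glycolysis and respiration had 4 of 20 members called, all higher in P. AAC2, a mitochondrial ADP/ATP carrier, held 2900.1 and 2866 FPKM in P and 663 and 608 in W (4.54-fold, adjusted p 0.0224). FBA8, a cytosolic aldolase, held 819 and 860.0 against 114 and 156 (6.22-fold, adjusted p 0.0258), and GAPC1, a cytosolic glyceraldehyde phosphate dehydrogenase, 1172 and 1417 against 334 and 334 (3.88-fold, adjusted p 0.0251). The replicates stood close together in each, and AAC1 was the fourth call. CYTC-1, cytochrome c, held 119.8 and 185 against 494 and 625 without a call (adjusted p 0.0535).

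The methyl cycle, which regenerates the methyl donor S-adenosylmethionine, had 4 of 5 listed genes called, all higher in P, while the whole list of sulfur, nitrogen and methyl metabolism had 8 positive and 9 negative differences and a median of -0.12. ATMS1, methionine synthase, held 4671 and 6275 FPKM in P and 1214 and 1276 in W (4.39-fold, adjusted p 0.0248) and was among the 10 highest loci of P. SAHH1, which clears the spent donor, held 1753 and 2767 against 313 and 255 (7.96-fold, adjusted p 0.0265). SAM1 and SAM2, S-adenosylmethionine synthetases, were called too, and with the third gene, MTO3, they summed to 2571 and 3512 in P and 808 and 876 in W. SPX1, a sensor of phosphate supply, was listed at 0 in W and read at 71.5 and 44.3 in P. GSH1, the first enzyme of glutathione synthesis, was lower in P, at 405 and 381 against 895 and 891 (2.28-fold higher in W, adjusted p 0.0353). These were the 6 calls among 17 genes of sulfur, nitrogen and methyl metabolism, and 1, 3, 0 and 0 of them held when the libraries were left out in the same order.

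Enzymes of sucrose cleavage were called in both directions. SUS1, a sucrose synthase, held 118 and 124 FPKM in P and 1434 and 1389 in W (11.6-fold higher in W, adjusted p 0.0165). VI2, a vacuolar invertase, held 597 and 759 against 46.2 and 29.6 (17.9-fold higher in P, adjusted p 0.0243). The 2 enzymes split the same sugar and were opposite in the 2 forms, with no overlap in either. STP13, a hexose importer, was listed at 0 in P and read at 22.4 and 24.4 in W. SWEET14, a sugar exporter, held 0 and 9.07 FPKM in P and 174 and 203 in W without a call (adjusted p 0.0771).

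Synthesis of sterol precursors by the mevalonate route had positive log2 differences in all 10 tested genes, 3 of them called higher in P, with a median log2 difference of 1.92. ACAT2, which makes acetoacetyl-CoA, held 163 and 165 FPKM in P and 20.1 and 13.1 in W (9.87-fold, adjusted p 0.0331). HMGS, the next enzyme, held 443 and 496 against 157 and 184 (2.76-fold, adjusted p 0.0429), and HMG1, the reductase that limits the route, 215 and 362 against 54.0 and 46.3 (5.76-fold, adjusted p 0.047). The 3 called genes are the first 3 steps of the route.

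Methyltransferases of phenylpropanoids were called in both directions. CCOAOMT1, a caffeoyl-CoA methyltransferase of lignin synthesis, held 1177 and 709 FPKM in P and 12858 and 13649 in W (14.1-fold higher in W, adjusted p 0.0242) and was among the 10 highest loci of W. OMT1, a methyltransferase that acts on caffeate and on flavonols, went the other way, at 1853 and 1446 against 488 and 478 (3.41-fold higher in P, adjusted p 0.0272). FAH1, the ferulate hydroxylase of sinapate synthesis, held 0 and 18.2 in P against 178 and 128 in W without a call (adjusted p 0.142). The list of lignin and sinapate had no other call among 12 genes.

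Called nuclear photosynthesis genes went in both directions. Of 35 photosystem and antenna genes 2 were called higher in P and 1 lower, with a median log2 difference of 1.01. LHCB6, a minor antenna protein, held 193 and 189.6 FPKM in P and 13.6 and 22.3 in W (10.7-fold, adjusted p 0.0326), and LHCB1.1, a main antenna protein, 83.5 and 181 against 6.87 and 5.62 (adjusted p 0.0405). PSBR, a subunit beside the oxygen-evolving complex, was lower in P, at 105 and 75.4 against 943 and 712 (9.19-fold higher in W, adjusted p 0.0258). The electron carrier PETC held 33.8 and 97.6 in P and 459 and 485 in W without a call (adjusted p 0.0658). LHCB1.1 has near-identical copies, and its sum with LHCB1.3 was 202 and 506 in P and 158 and 70.7 in W.

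Carbon fixation and photorespiration had 2 calls among 22 genes, both in photorespiration and both lower in P. SHM1, the mitochondrial serine hydroxymethyltransferase, held 112 and 162 FPKM in P and 1061 and 1038 in W (7.67-fold higher in W, adjusted p 0.0251). GOX1, a glycolate oxidase of the peroxisome, was listed at 0 in P and read at 50.0 and 68.0 in W, and with its copy GOX2 it summed to 6.38 and 0 against 59.4 and 103. RCA, rubisco activase, overlapped at 532 and 715 in P and 701 and 635 in W, as did RBCS1A, the small subunit of rubisco.

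Circadian clock genes differed in opposite directions. CCA1, a morning repressor at the core of the clock, held 21.9 and 28.5 FPKM in P, with W replicates 1 and 2 listed at 0 (adjusted p 0.046). LNK2, another morning gene, held 34.0 and 23.0 in P and was likewise at 0 in W (adjusted p 0.0432). TOC1, the evening repressor that opposes CCA1, held 10.8 and 3.91 in P and 272 and 309 in W (log2 difference -5.26 ± 0.55, adjusted p 0.0292). Both called morning genes were detected in P alone, and the called evening gene stood high in both W libraries, at 102 and 142 recovered reads against 3 and 1. Both morning calls ended with quantile scaling (adjusted p 0.0562 for CCA1 and 0.0534 for LNK2).

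Most other clock genes were not called. The morning gene PRR9 held 16.8 and 12.1 FPKM in P and was listed at 0 in W (adjusted p 0.065). The evening gene ELF4 held 43.4 and 0 in P and 5556 and 5589 in W (log2 difference -9.71 ± 1.92, adjusted p 0.071). Both P libraries lay far below both W libraries, but on the log2(FPKM + 1) scale the P libraries lay far apart. LHY, the close partner of CCA1, was listed at 0 in P and read at 5.78 and 4.7 in W (adjusted p 0.148), unlike CCA1. LNK1, the relative of LNK2, was also lower in P, at 26.5 and 8.68 against 47.4 and 50.7 (adjusted p 0.233), unlike LNK2. Of the 18 tested clock genes 6 had positive and 12 negative log2 differences. GRP7, an RNA-binding protein that cycles under clock control, was called lower in P, at 232 and 134 against 1355 and 1603 (8.07-fold higher in W, adjusted p 0.0301). The hour of sampling is not given for either form. Of the 4 clock calls among 18 genes, 1, 3, 0 and 0 held when the libraries were left out in the same order.

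Among light signalling genes UVR8, the receptor of ultraviolet B light, was the 1 call of 16. It held 1604 and 1653 FPKM in P and 597 and 609 in W (2.7-fold higher in P, adjusted p 0.0251), with replicates close together in both forms. HY5, the transcription factor through which it acts, overlapped at 64.5 and 126 against 76.5 and 70.5. The red light receptor PHYA held 81.7 and 62.4 in P and 191 and 169 in W without a call (adjusted p 0.079).

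**Figure D5:**
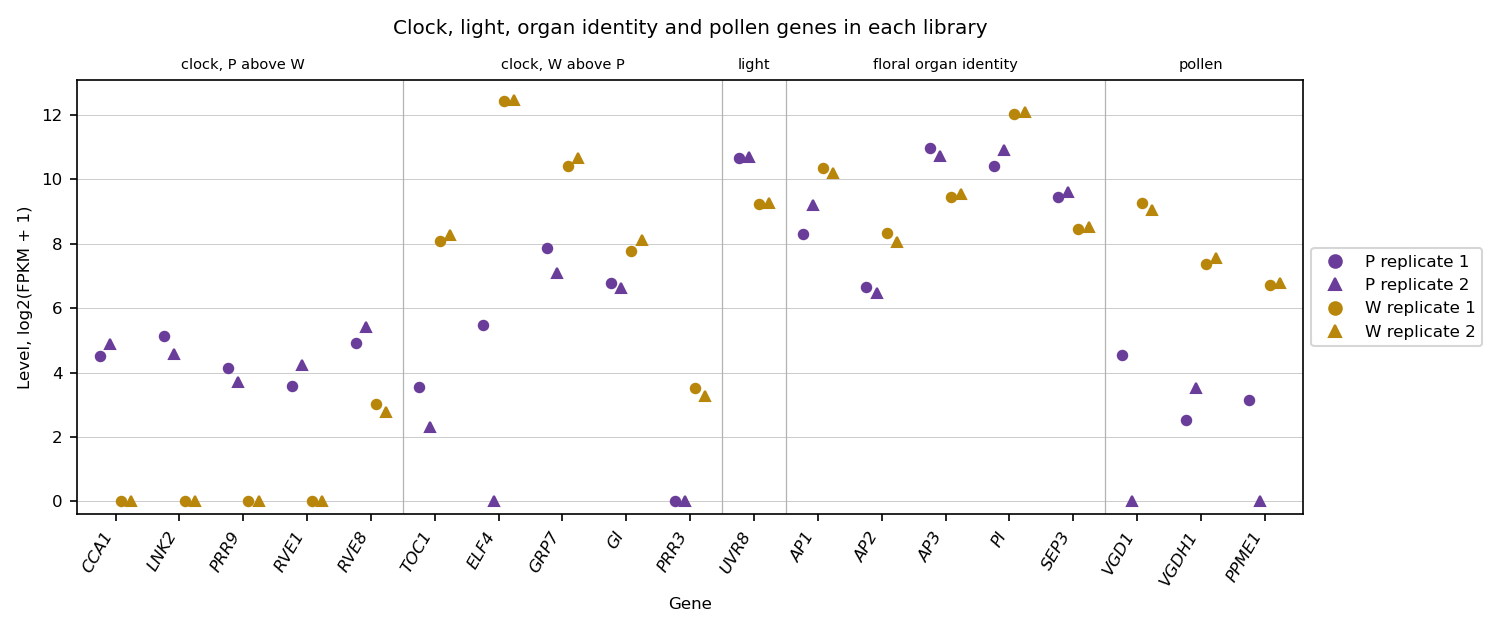
Level of 19 clock, light, organ identity and pollen genes, log2(FPKM + 1), in each of the 4 libraries, with circles for replicate 1 and triangles for replicate 2. CCA1, LNK2, PRR9 and RVE1 are detected in P and lie at 0 in W, TOC1, ELF4 and GRP7 lie high in W, AP3 and PI lie in opposite order, and the 3 pollen genes lie high in W. The clock genes were picked and grouped by direction, so their separation is not a result of the figure. Other clock genes, such as LHY and LNK1, which were lower in P, are not shown.

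The petal identity genes AP3, PI and SEP3 were high in all 4 libraries of the labelled organ, but their balance differed. AP3 and PI form the dimer that specifies petals. AP3 held 2023 and 1676 FPKM in P and 697 and 741 in W (2.57-fold higher in P, adjusted p 0.0319), whereas PI held 1366 and 1929 against 4189 and 4370.2 (2.6-fold higher in W, adjusted p 0.0432). The partners were opposite in the 2 forms, without overlap, but the PI call ended with quantile scaling (adjusted p 0.0642) and with no filter (0.0513). AP2, which acts in the outer organs, was lower in P, at 100.4 and 88.4 against 321 and 265 (3.1-fold higher in W, adjusted p 0.0475). SEP3, a cofactor of both, held 692 and 780.5 against 348 and 368 (adjusted p 0.0507), and SEP2 overlapped. Of the 3 petal identity calls, 0, 1, 0 and 0 held when the libraries were left out in the same order, and 1 held with quantile scaling.

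Markers of other organs were mixed. Of 6 carpel and ovule markers 5 were listed at 0 in all libraries, and SHP1 was above 0 in 1 library of each form, with no value over 10 FPKM. Among 6 tested guard cell and vascular genes XCP1, a protease of xylem vessels, held 34.5 and 28.1 in P and was listed at 0 in W (adjusted p 0.0393). APL, a regulator of phloem identity, held 65.6 and 39.5 against 410.4 and 383 (7.55-fold higher in W, adjusted p 0.0339). The xylem wall genes IRX1, IRX3 and IRX5 stayed at or below 6.19 FPKM in every library.

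Listed hormone genes were called at about the share of all loci, with 4 of 77 tested over 4 lists (5.19% against 4.94%). Over all lists 96 of 591 were called, but the lists were chosen with earlier results of these data known. The smaller share of the hormone lists is therefore not a result about hormones. Among 24 auxin genes ARF8, a response factor that restrains petal growth in Arabidopsis, held 695 and 721 FPKM in P and 208 and 147 in W (3.99-fold higher in P, adjusted p 0.0353). DRM1, a gene of dormant tissue, was listed at 0 in P and held 116 and 146 in W (adjusted p 0.0242), and its relative DRM2 likewise, at 103 and 133 (adjusted p 0.0242). Among 16 ethylene genes EFE, an enzyme of the last step of ethylene synthesis, was listed at 0 in P and read at 40.3 and 51.7 in W (adjusted p 0.0326).

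Jasmonate had 0 calls among 18 genes, of which 13 had positive differences. Its most abundant member, MYB21, a factor that drives petal and stamen expansion, held 1227 and 1036 FPKM in P and 578 and 416 in W (adjusted p 0.0661). The listed genes of gibberellin, brassinosteroid and abscisic acid had 0 calls among 19 tested. Called loci outside the lists were not searched for further hormone genes. NCED3, the limiting enzyme of abscisic acid synthesis, was read at 4.28 and 0 FPKM in P against 41.2 and 56.8 in W (adjusted p 0.0863). The 4 GASA peptides, the 7 petal growth regulators and the 9 cold and dehydration genes also had 0 calls. GASA9, of the gibberellin-regulated GASA peptides, held 0 and 90.1 FPKM in P and 734 and 921 in W (adjusted p 0.188). TCP4, which ends cell division in petals and leaves, held 153 and 177 against 73.3 and 50.6 (adjusted p 0.0854), and RCI2B, a small membrane protein of cold response, 771 and 1029 against 367 and 539.5 (adjusted p 0.121). The forms did not overlap in these 3.

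Defence genes were mostly low. PDF1.1, an antifungal defensin, held 720.4 and 936 FPKM in P and 2402 and 2604 in W (3.02-fold higher in W, adjusted p 0.0311) and was the 1 call among 11 pathogen response genes. NSP5, a nitrile-specifier protein that acts on broken-down glucosinolates, was listed at 0 in P and read at 61.7 and 54.9 in W (adjusted p 0.0272). It was the 1 call among 6 myrosinases and specifier proteins. The 10 aliphatic and 6 indolic glucosinolate genes had 0 calls. IIL1, an isomerase subunit of chain elongation, was the most abundant of the aliphatic genes, at 200.0 and 182 against 104 and 88.1. TSB1, a tryptophan synthase subunit, was that of the indolic genes, at 159.9 and 207 against 396 and 409 (adjusted p 0.0693).

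Aquaporins, the water channels of the plasma membrane and vacuole, were among the highest transcripts in both forms and had 0 calls among 17. PIP1B held 9232 and 14906 FPKM in P and 11877 and 12856 in W. PIP3 held 10005 and 19365 against 9035 and 9735, and TIP2, of the vacuole membrane, 7243 and 13689.6 against 3691 and 4078 (adjusted p 0.0972). The P libraries differed from each other by more than the forms did for PIP1B and PIP3. Starch metabolism (6 tested), cell cycle and histones (14 tested) and floral scent (2 tested) also had 0 calls. BAM3, a beta-amylase of the plastid, held 9.86 and 21.4 FPKM in P and 94.9 and 83.3 in W (adjusted p 0.0722). HTR8, a histone H3, held 300.1 and 419.8 against 209 and 194, and the terpene synthase TPS10 10.6 and 17.3 against 3.93 and 6.4.

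Over the 12 lists with 0 calls by limma, 113 loci were tested, of which 35 had an unadjusted p under 0.05. The fit on recovered reads could test 49 of these loci and called 8 of them, BAM3, SEX1 and GBSS1 of starch metabolism, PIP2B and PIP2;5 of the aquaporins, MYB24, BES1 and NCED3. At the top of the level range, PIP3, PIP1B, TIP2, ACT2 and ATMS1 were among the 10 highest loci of P, and MT1A, CCOAOMT1, PIP1B, PIP3, XTH24 and CATHB3 among those of W.

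Loci of the plastid and mitochondrial genomes are poorly caught by poly(A) selection, and their share varied within forms. Plastid loci made up 3.87% and 0.75% of FPKM in the P libraries and 0.821% and 1.59% in the W libraries. Of 63 tested, 2 were called higher and 3 lower in P. Mitochondrial loci made up 0.934% and 1.05% in P and 0.211% and 0.209% in W, higher in both P libraries, with 1 of 21 called.

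The pair of called loci with the most extreme differences on each side were organelle loci or loci on no list, for which the files give no name. The 2 highest in P were ATCG00590, with 4409 and 4083 FPKM, and ATMG01380, with 2028 and 1663 FPKM, both listed at 0 in W. The 2 lowest were AT2G40205, with 3237 and 13324.5 FPKM in W, and ATCG00630, with 3693 and 6705 FPKM in W, both listed at 0 in P. Whole reads were not recovered for any of these loci, so the reads behind their values are unknown. FPKM divides by transcript length, so at a short locus a few reads can give a high value. Among called loci without overlap, of the 20 highest log2 differences 18 belonged to loci at 0 in W, and of the 20 lowest 19 belonged to loci at 0 in P. Whether reads of the 2 forms were assigned to different copies of a gene was not tested.

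Of the 53 listed loci called higher and 43 called lower in P, 20, 42, 36 and 32 in all were called again in the same direction without P replicate 1, P replicate 2, W replicate 1 and W replicate 2. A fit on recovered reads, which uses the counts behind low values, called 997 of 5376 loci (18.5%), 556 of them higher in P. It could test 125 of the 653 loci and called 124 of them.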

How the data were processed

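Petal RNA of Orychophragmus violaceus was measured by sequencing in 4 libraries, grouped by the form code and replicate number of their titles. The authors deposited FPKM values per Arabidopsis locus, and the submitters' processing notes name TopHat, Cufflinks, Cuffdiff and DESeq without versions. The genome build is not given in the sources used here, and the raw reads were not used. FPKM scales each library to its mapped total and divides by transcript length, so its values are not counts.

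Limma 3.58.1 in R 4.3.3 took log2(FPKM + 1) of the 4 libraries, with an intensity trend in its empirical Bayes step, and p-values were adjusted by Benjamini-Hochberg over the 13226 loci with a form mean of at least 1 FPKM. A locus was called at an adjusted p under 0.05. Standard errors are those of the fit, folds are ratios of mean FPKM, and a log2 difference on this scale understates the change of low loci. An exact permutation test of 2 libraries against 2 cannot reach p under 0.05 and was not used.

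Low FPKM values fall on steps worth 1 read. Of 5700 loci above 0 in at least 3 libraries whose lowest value is under 30 FPKM, 94.4% had values within 0.1 of whole reads. These gave 17098 to 36054 reads per library, holding 13.9% to 19.0% of FPKM, so the full depth is unknown. The fits were tested on simulated data. With many changed loci limma on FPKM made more false calls than its threshold allows and more than voom on reads, and with few it called none of them.

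The process lists and members were chosen with earlier results of these data known. Gene names come from these lists, in standard Arabidopsis nomenclature, and could not be checked against an annotation here. The lists may not hold every gene of a process or family, and loci outside them were left unnamed. The genes named are up to 4 called members per list by size of the log2 difference, the most abundant member of a list with no call, called organ markers and the highest loci of each form. Other members, and the sums over gene families, were chosen after their values were seen. The alternatives were another pseudocount, no filter and a stricter filter, quantile scaling, median centring, the replicate number as a block, no intensity trend, each library left out, voom on recovered reads, and organelle loci left out. The replicate numbers did not pair the libraries (correlation of deviations -0.0065 over 13226 loci).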

Additional observations from a re-analysis of the deposited data

How the results depend on the processing

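The number of calls depended on how the spread between 2 libraries per form was estimated, and the lists of called loci are to be read with that limit. Against 653 loci called in all and 96 on the process lists, the totals were 1190 with a pseudocount of 0.1, 1608 (167 listed) with a form mean of at least 10 FPKM and 997 of 5376 with voom on recovered reads. Without the intensity trend 0 loci were called in all and on the lists, 2845 and 210 of them had an unadjusted p under 0.05, and the smallest adjusted p was 0.0572. With each library left out in turn the totals ran from 927 to 2200 and on the lists from 48 to 92, and the lone library left in a form is then assumed to vary like the others. Only 129, 247, 310 and 293 of the 653 loci were called again without P replicate 1, P replicate 2, W replicate 1 and W replicate 2. The calls favoured the form reduced to 1 library, with 750 higher and 177 lower without P replicate 1 and 143 higher and 2057 lower without W replicate 1. No filter gave 576 calls, median centring 660, organelle loci left out 699 and quantile scaling 590, of which 514 were among the 653. Of the loci named 10, none of them called, changed sign, and the cause was not tested. With quantile scaling PIP1B went from -0.07 to 0.13, KOR1 from -0.25 to 0.16, RCA from -0.11 to 0.35, ABCG11 from -0.08 to 0.37 and CSD1 from -0.26 to 0.29. With a library left out the ranges were -0.42 to 0.27 for PIP1B, -0.53 to 0.029 for KOR1, -0.33 to 0.10 for RCA, -0.41 to 0.25 for ABCG11, -0.89 to 0.37 for CSD1, -0.18 to 0.77 for HY5 (0.29 with all), -0.79 to 0.90 for RBCS1A (0.05), -0.27 to 0.33 for EXPA4 (0.03), -0.012 to 0.051 for UBQ11 (0.02) and -1.48 to 1.97 for SHP1 (0.24). On the lists 12 calls were lost with quantile scaling and 9 with no filter.

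The replicate numbers are shared only as numbers, since the deviations of same-numbered libraries did not go together. A fit with the replicate number as a block called 2254 loci, 902 higher and 1352 lower in P, and 232 on the lists. It kept all 653 calls, but its smallest adjusted p was 1.56e-72, far smaller than 2 libraries per form can bear. That the calls were kept therefore does not count as support for them.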
